A study of Mus musculus with 12 samples.

Results

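Described here are 38 mouse genes of DNA replication and S phase, followed through 4 groups of bone marrow-derived macrophages. The genes were chosen by name, for the known role of their products, with earlier results of these data already known. All 38 were found among the 47937 genes of the count table by their Ensembl identifiers, and all 38 were among the 11760 genes that passed the filter on low counts. Of these, 30 would have passed on the stimulated libraries alone, and 8 (Orc1, Cdc6, Cdc45, Gins1, Rrm2, Tyms, Tk1 and Dut) passed through the resting libraries only. The members fall into 5 roles: 13 genes of origin licensing and the replicative helicase, 13 of the polymerases, clamp and fork, 5 of nucleotide supply, 3 of the E2F and cyclin E switch, and 4 that handle chromatin behind the fork.

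The study asked how making triglycerides affects inflammatory macrophages, and used T863 to inhibit DGAT1, an enzyme of the last step of triglyceride synthesis. Bone marrow cells of C57BL/6 mice were cultured for 7 days with CSF-1, the growth factor of macrophages, which per the methods stayed in the medium of every group. Resting macrophages without further additions are called M0. Macrophages given interferon-γ at 50 ng per ml and lipopolysaccharide at 20 ng per ml for 18 h are called IFNγ + LPS. Both states were also studied with T863 at 50 μM, also for 18 h, and these groups are named M0 with DGAT1i and, for the activated state, IFNγ + LPS with DGAT1i. The labels give no time for M0 and name no carrier control for the inhibitor. All groups were thus wild-type cells grown in CSF-1, and each had 3 libraries. The descriptions of 2 of the 3 libraries of M0 with DGAT1i give the compound as T864 and T865, whereas the source name of each gives T863. Neither the labels nor the methods say for these libraries whether the 3 came from separate animals or cultures, so the p-values measure the spread between these samples, which may be technical.

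Total reads per library ran from 4996014 to 6621671. Levels are given as TMM-scaled CPM, and 1 CPM stood for 4.28 to 7.58 reads, depending on the library. A gene was called higher or lower where the adjusted p of edgeR's quasi-likelihood test was under 0.05, and SE is the standard error of a log2 fold change. The summed level of 10 macrophage markers ran from 13400 to 14700 CPM in M0, from 8750 to 9410 in IFNγ + LPS, from 16400 to 18400 in M0 with DGAT1i and from 8320 to 9260 with both. Lyz2, a lysozyme gene, was the largest part of each sum, at 9640, 2960, 13000 and 3110 CPM on average in these groups, whereas Adgre1, which encodes the antigen F4/80, was at 1320, 2710, 1160 and 2110 CPM, and Mertk, Fcgr1 and Spi1 were also higher in both stimulated groups. Nos2 and Il12b, genes of classical activation, had 0 reads in the resting libraries, and 6 activation genes summed to 12200 to 13000 CPM in IFNγ + LPS and to 12100 to 12700 CPM in IFNγ + LPS with DGAT1i. The T-cell genes Cd3e and Cd3g, the globin gene Hba-a1 and the mast cell gene Cpa3 had 0 reads, and the lymphocyte, stromal and mast cell lists summed to at most 2.32 CPM in any library. The dendritic cell list reached 7.16 CPM in IFNγ + LPS, where Xcr1 was at 5.53 CPM on average, and was at most 1.40 CPM in the other groups. The erythroid and megakaryocyte list summed to 63.2 to 199 CPM, nearly all of it Pf4, which macrophages express too.

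Before S phase, the origin recognition complex, Cdc6 and Cdt1 load rings of the Mcm2 to Mcm7 helicase onto DNA, and Cdc45 and the GINS complex turn each ring into an active helicase. Polymerases then copy both strands while the ring-shaped clamp Pcna, placed by replication factor C, keeps them on the template. Many of these genes share E2F transcription factors as regulators, which the retinoblastoma family holds back and cyclin E with Cdk2 releases, and mouse macrophages in culture divide in response to CSF-1. Interferon-γ and lipopolysaccharide are both known to stop that division.

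To show what the promoters of the members share, windows from 250 bases before to 50 after a RefSeq start site (GRCm38.p6) were searched on both strands for 4 sets of letters of E2F type: TTTCCCGC, TTTCGCGC, TTTGCCGC and TTTGGCGC, whose matches may overlap each other. RefSeq windows were found for 32 of the 38 members, 39 windows in all. Of these windows, 33.3% held such letters, against 2.26% of 32851 windows of all genes and 4.07% of 11398 windows of the genes tested. They were also in 30.6% of the windows of 30 other licensing, firing and fork genes, in 31.0% of those of 21 regulators of RB, E2F and the step from G1 to S, in 20.0% of those of 13 genes of checkpoint and repair, and in 5.56% of those of 15 other nucleotide enzymes. By gene, 13 of 32 members held them, namely Mcm3, Mcm5, Mcm6, Mcm7, Orc1, Cdc6, Cdt1, Rfc3, Lig1, Pold1, Pola1, Dnmt1 and Uhrf1. The letters CCAAT were in 56.4% of the member windows, in 37.4% of all windows and in 38% of those of the genes tested. The letters TTTGAA, the CHR element known from genes of G2 and mitosis, were in 10.3% of the member windows, in 17.9% of all windows and in 12.2% of those of the genes tested. In the windows of 16 genes of G2 and mitosis TTTGAA stood in 68.8%, CCAAT in 87.5% and E2F-type letters in 6.25%. A match is a description of the letters and not a measured binding site.

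The windows of 5 members are printed from 250 bases before to 30 after the start site, on the strand of the gene, with E2F-type letters in capitals. Mcm3 (chr1:20820283-20820562, minus strand), Mcm5 (chr8:75109259-75109538, plus strand) and Mcm6 (chr1:128359676-128359955, minus strand) are shown as ring subunits that fell on activation and whose windows hold more than 1 match. A window of Mcm7 and a window at a downstream start of Dnmt1 also hold 2 matches and are not printed. Rfc3 (chr5:151651179-151651458, minus strand) is shown because its window holds 2 matches while the gene was not called on activation, and Ccne1 (chr7:38107461-38107740, minus strand) because its window holds none and it was the member that rose. In Mcm5 and in the upstream pair of Mcm6, matches on opposite strands overlap and form 1 run of capitals. A further match of Mcm3 begins 39 bases after the start site and lies outside the printed stretch.
Mcm3: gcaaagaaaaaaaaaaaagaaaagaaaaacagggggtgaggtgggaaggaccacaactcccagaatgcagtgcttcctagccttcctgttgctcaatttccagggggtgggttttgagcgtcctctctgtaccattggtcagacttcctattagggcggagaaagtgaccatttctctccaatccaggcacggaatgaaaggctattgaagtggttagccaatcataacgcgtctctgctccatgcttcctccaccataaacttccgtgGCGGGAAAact
Mcm5: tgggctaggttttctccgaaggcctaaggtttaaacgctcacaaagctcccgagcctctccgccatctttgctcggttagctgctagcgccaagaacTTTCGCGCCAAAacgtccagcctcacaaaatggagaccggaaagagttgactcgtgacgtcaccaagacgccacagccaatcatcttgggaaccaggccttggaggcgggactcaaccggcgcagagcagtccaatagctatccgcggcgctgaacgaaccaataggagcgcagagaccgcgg
Mcm6: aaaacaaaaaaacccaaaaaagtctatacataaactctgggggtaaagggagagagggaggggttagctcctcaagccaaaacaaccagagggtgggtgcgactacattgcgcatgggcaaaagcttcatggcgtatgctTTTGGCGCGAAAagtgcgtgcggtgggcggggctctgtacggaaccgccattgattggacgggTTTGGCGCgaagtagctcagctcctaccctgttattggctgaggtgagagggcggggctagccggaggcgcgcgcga
Rfc3: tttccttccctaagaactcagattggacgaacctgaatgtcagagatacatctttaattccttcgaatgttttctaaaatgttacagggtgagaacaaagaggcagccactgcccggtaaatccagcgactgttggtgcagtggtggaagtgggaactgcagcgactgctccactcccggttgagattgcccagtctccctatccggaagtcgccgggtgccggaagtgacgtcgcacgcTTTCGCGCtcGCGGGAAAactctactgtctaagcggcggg
Ccne1: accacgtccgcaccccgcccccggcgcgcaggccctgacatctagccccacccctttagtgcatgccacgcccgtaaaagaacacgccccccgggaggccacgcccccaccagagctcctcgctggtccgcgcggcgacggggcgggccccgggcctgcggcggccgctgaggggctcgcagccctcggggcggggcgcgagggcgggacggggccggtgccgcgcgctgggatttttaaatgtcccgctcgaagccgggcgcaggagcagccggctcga

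The members as a group were at their highest in M0. Their summed level was 3050 to 3460 CPM in M0, 1940 to 2150 CPM in M0 with DGAT1i, 714 to 790 CPM in IFNγ + LPS and 709 to 735 CPM in IFNγ + LPS with DGAT1i. The ranges of the first 3 groups lay apart, and those of the 2 stimulated groups overlapped. By group means, 36 of the 38 members were highest in M0, and 24 had the order M0, M0 with DGAT1i, IFNγ + LPS, IFNγ + LPS with DGAT1i. Another 11 had the last 2 groups exchanged. Only Ccne1 and Rfc3 were highest in IFNγ + LPS, and Rfc2 had an order of its own, with the group given both agents after M0 and above M0 with DGAT1i. Per kilobase of exon, the levels of M0 ran from 2.19 CPM per kb for Orc1 to 176 CPM per kb for Pcna, followed by Mcm6 at 53.5 and Mcm5 at 41.0. In IFNγ + LPS Pcna still led, at 94.2 CPM per kb, with Ccne1 next at 24.9 and Dnmt1 at 14.6, and Orc1 was lowest at 0.128.

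**Figure D1:**
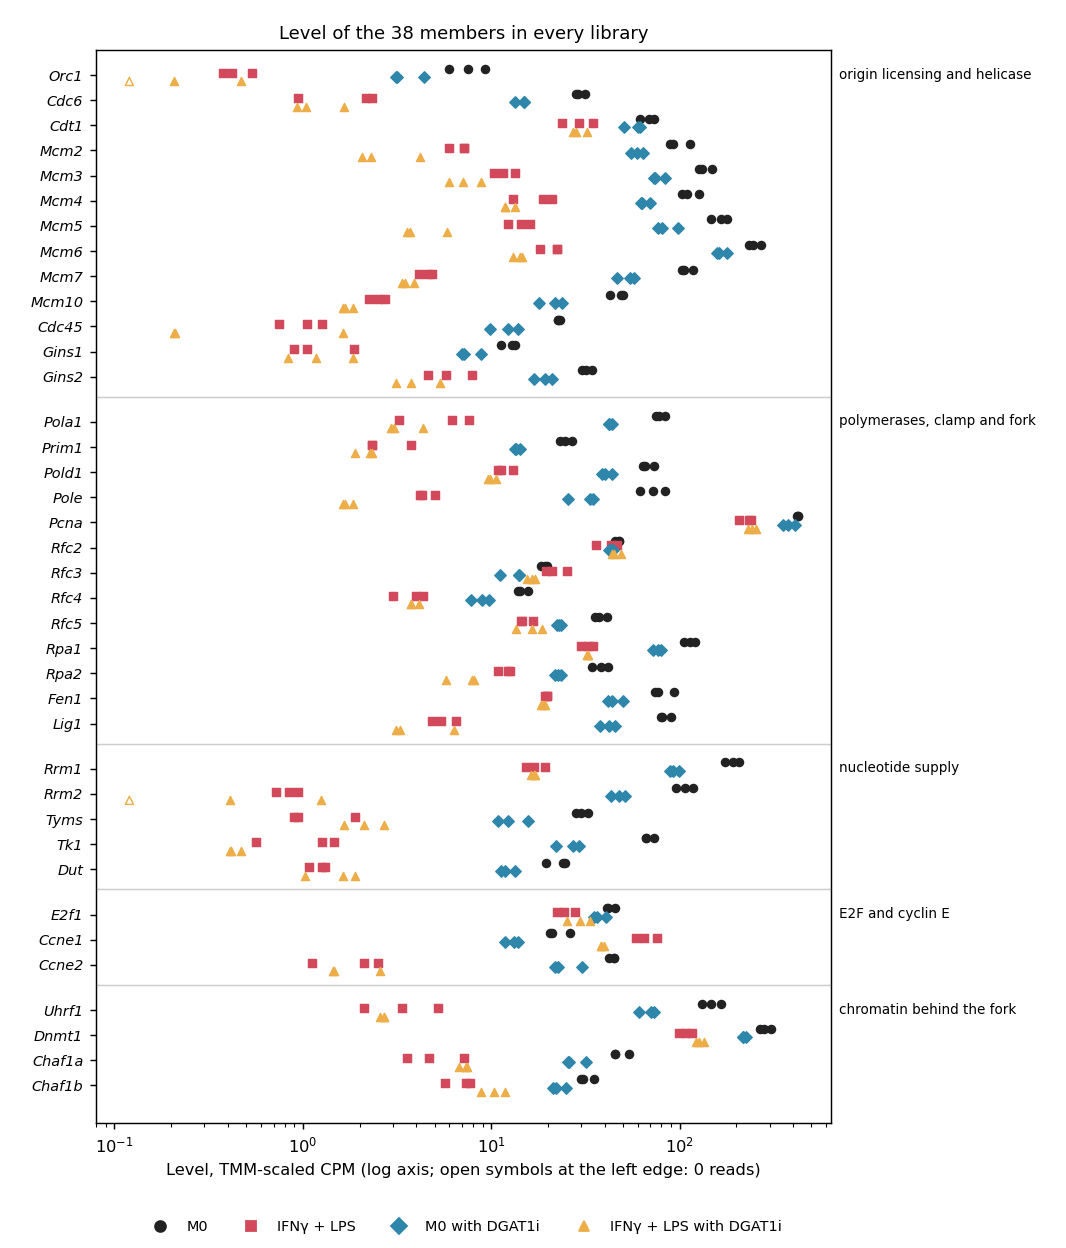
Level of each of the 38 members (rows, by role) in each of the 12 libraries (points), in TMM-scaled CPM on a log axis, with open symbols for 0 reads (Orc1 and Rrm2 in 1 library each). For 35 members the 3 M0 libraries sit to the right of the 3 IFNγ + LPS libraries, for Ccne1 they sit to the left, and for Rfc2 and Rfc3 the 2 groups overlap.

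IFNγ + LPS was first compared with M0, which shows how the members changed on activation. At 18 h 35 of the 38 members had fallen, Ccne1 alone had risen, and Rfc2 and Rfc3 were not called. Over all genes tested, 36.2% were called lower and 37.1% higher, and the members stood at 92.1% and 2.63%. The 8 members that passed the filter through the resting libraries only could pass it only by being higher there. Over the other 30, 27 were called lower and 1 higher, with a median of −2.60, while of the 10660 genes that passed on the stimulated libraries alone 32.6% were called lower and 40.9% higher. When libraries were scaled by total reads alone, 7002 genes were called lower and 2340 higher, in place of 4254 and 4361, and the median of all genes moved from 0.01 to −0.46. The median log2 fold change of the members was −3.37, and that of all genes tested was 0.01. The libraries of the 2 groups did not overlap, with IFNγ + LPS below, for those same 35 members, against 37.1% of all genes. Granulocyte genes moved along, with a summed level of 32.2 to 39.7 CPM in M0 and 15.4 to 26.0 CPM in IFNγ + LPS, Ngp at −2.60 and Ltf at −2.93 both called lower and S100a8 and S100a9 not called, and their part in the result was not tested. In bulk RNA, fewer cells that express a gene and less of its RNA per cell cannot be told apart. The calls of the 36 members kept their direction with every library left out in turn and in every other setting tried.

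All 13 genes of origin licensing and the helicase fell, with a median of −3.57, or of −3.54 over the 9 that passed the filter on the stimulated libraries alone. Mcm6, a subunit of the helicase ring, was at 244, 270 and 234 CPM in M0, at 161, 158 and 178 CPM in M0 with DGAT1i, at 18.1, 22.3 and 22.3 CPM in IFNγ + LPS and at 14.2, 14.6 and 13.1 CPM with both. The 4 groups lay apart from each other in that order. Mcm6 thereby fell by 3.57 ± 0.08 (log2, SE) on activation, with an adjusted p of 3.50e-42, the smallest of the members. For Mcm7, another ring subunit, the libraries gave 105, 117 and 103 CPM in M0, 46.5, 54.8 and 57.1 CPM in M0 with DGAT1i, 4.63, 4.86 and 4.12 CPM in IFNγ + LPS and 3.91, 3.34 and 3.50 CPM with both. Here too every library of 1 group was below every library of the group before it. Its log2 fold change on activation was −4.57 ± 0.12 (adjusted p = 1.62e-38), the largest fall of the 13. A processed pseudogene, Gm5487, matches 72.8% of the Mcm7 transcript at 95% identity or more, and its reads were not analysed here.

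The other ring subunits stood at like distances. Mcm2 was measured at 89.4, 113 and 92.2 CPM in M0, at 55.1, 59.2 and 64.1 CPM in M0 with DGAT1i, at 7.16, 7.20 and 5.99 CPM in IFNγ + LPS and at 2.06, 2.29 and 4.20 CPM with both. Mcm3 gave 126, 148 and 132 CPM, then 73.3, 74.2 and 83.4 CPM, then 13.3, 11.5 and 10.3 CPM, then 5.97, 7.09 and 8.87 CPM in the same order of groups. Mcm5 gave 165, 179 and 147 CPM, then 81.0, 76.7 and 98.0 CPM, then 14.3, 16.0 and 12.2 CPM, then 3.71, 3.55 and 5.84 CPM. In each of these 3 genes the 4 groups were separate, and the libraries with both agents were the lowest. On activation the log2 fold change was −3.86 ± 0.13 for Mcm2, −3.54 ± 0.10 for Mcm3 and −3.53 ± 0.12 for Mcm5, and Mcm4 fell less, with −2.68 ± 0.10. Among the loaders and activators, Mcm10 changed by −4.23 ± 0.17. Cdc45 (−4.45 ± 0.25), Cdc6 (−4.02 ± 0.20), Orc1 (−4.02 ± 0.39) and Gins1 (−3.27 ± 0.27) passed the filter through the resting libraries only. Orc1, a subunit of the origin recognition complex, rested on 163 reads over the 3 M0 libraries and on 7 over those of IFNγ + LPS. Cdt1, which brings the helicase rings to origins, fell least of the 13, from 67.8 ± 5.61 CPM (SD, n = 3) in M0 to 29.3 ± 5.48 CPM, a log2 fold change of −1.20 ± 0.10. Of Gins2, 67.3% of the exon length lies opposite an exon of Gse1, and reads of the 2 genes cannot be told apart if strand was not used in counting.

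Of the 13 genes of the polymerases, clamp and fork, 11 fell on activation, with a median of −1.95 over the 13. Pole, the catalytic subunit of the leading-strand polymerase, was at 72.1, 83.2 and 61.5 CPM in M0, at 33.3, 25.6 and 34.7 CPM in M0 with DGAT1i, at 4.21, 5.04 and 4.31 CPM in IFNγ + LPS and at 1.85, 1.67 and 1.63 CPM with both. The 4 groups did not overlap. Pole had the largest fall of these 13, with −3.99 ± 0.15 (adjusted p = 1.38e-26). The DNA ligase Lig1, which seals Okazaki fragments, was at 80.8, 90.4 and 79.8 CPM in M0, at 42.2, 37.9 and 45.3 CPM in M0 with DGAT1i, at 6.53, 5.40 and 4.87 CPM in IFNγ + LPS and at 6.38, 3.13 and 3.27 CPM with both. Its resting groups were separate from each other and from the stimulated groups, and the 2 stimulated groups overlapped. Lig1 changed by −3.91 ± 0.13 on activation (adjusted p = 3.33e-33). For Pola1, the catalytic subunit of the polymerase that starts each fragment, the values were 77.3, 83.4 and 74.6 CPM in M0, 42.1, 42.0 and 43.8 CPM in M0 with DGAT1i, 7.58, 3.24 and 6.18 CPM in IFNγ + LPS and 4.32, 2.92 and 3.04 CPM with both. The stimulated groups overlapped here as well, and the change on activation was −3.81 ± 0.13 (adjusted p = 7.70e-33).

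The single-strand binding and flap-processing genes and the clamp fell less than Pole, Lig1 and Pola1. Rpa2, a subunit of the single-strand binding protein, was at 34.3, 41.5 and 38.4 CPM in M0, at 21.7, 22.7 and 23.5 CPM in M0 with DGAT1i, at 12.6, 10.8 and 12.2 CPM in IFNγ + LPS and at 5.76, 8.14 and 7.94 CPM with both, and its 4 groups lay apart. Fen1, the flap endonuclease of Okazaki fragments, was at 76.3, 93.8 and 73.9 CPM in M0, at 49.8, 41.9 and 43.9 CPM in M0 with DGAT1i, at 19.2, 19.8 and 19.7 CPM in IFNγ + LPS and at 18.3, 19.2 and 18.9 CPM with both. Its stimulated groups overlapped and its resting groups did not. The changes on activation were −1.69 ± 0.12 for Rpa2, −2.06 ± 0.10 for Fen1 and −1.81 ± 0.08 for Rpa1. Pcna, the clamp itself, named here for its level, was at 418, 424 and 425 CPM in M0 and at 206, 233 and 238 CPM in IFNγ + LPS. The 2 groups did not overlap, and the change of −0.90 ± 0.06 (adjusted p = 6.88e-21) was among the smallest of the called members.

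The 4 small subunits of the clamp loader split. Rfc4 and Rfc5 fell, with −1.95 ± 0.19 and −1.32 ± 0.11. Rfc2 was at 47.9, 47.8 and 45.1 CPM in M0 and at 36.0, 43.0 and 46.3 CPM in IFNγ + LPS, and Rfc3 at 19.8, 18.4 and 19.4 CPM and at 21.1, 25.2 and 19.5 CPM. In both genes the groups overlapped. The log2 fold change of Rfc2 was −0.16 (95% interval from −0.33 to 0.01, adjusted p = 0.0846) and that of Rfc3 was 0.20 (95% interval from −0.04 to 0.43, adjusted p = 0.133). With that scaling by total reads alone, Rfc3 came out at −0.27 with an adjusted p of 0.0355 and Rfc2 at −0.63 with an adjusted p of 4.52e-09. Both were then called lower, so that the calls of Rfc2 and Rfc3 and the sign of Rfc3 depend on the scaling. Without replicate 3 of IFNγ + LPS, Rfc2 was called lower at −0.24 (adjusted p = 0.0295). Some exon length of Rfc2 (15.1%), Rfc4 (12.7%) and Rfc5 (10.7%) lies opposite a more highly counted gene.

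The 5 genes of nucleotide supply all fell. Of these, Rrm2, Tyms, Tk1 and Dut passed the filter through the resting libraries only, so their falls on activation are a description and are not ranked against the other roles. Rrm1, the large subunit of ribonucleotide reductase, was at 192, 206 and 175 CPM in M0, at 92.6, 89.0 and 98.8 CPM in M0 with DGAT1i, at 16.8, 19.3 and 15.2 CPM in IFNγ + LPS and at 16.3, 16.9 and 17.0 CPM with both. The 2 stimulated groups overlapped and the other groups did not. Rrm2, the small subunit that is made in S phase, named here for the size of its change, was at 107, 117 and 96.1 CPM in M0, at 47.8, 43.0 and 51.3 CPM in M0 with DGAT1i, at 0.842, 0.720 and 0.937 CPM in IFNγ + LPS and at 0.412, 1.25 and 0 CPM with both. Its stimulated values rested on 13 and 8 reads over 3 libraries and overlapped. On activation Rrm1 changed by −3.48 ± 0.09 and Rrm2 by −6.97 ± 0.19.

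Tk1, the thymidine kinase of dividing cells, was at 66.1, 72.8 and 66.3 CPM in M0, at 29.1, 22.1 and 27.1 CPM in M0 with DGAT1i, at 1.47, 1.26 and 0.562 CPM in IFNγ + LPS and at 0.412, 0.417 and 0.467 CPM with both. Thymidylate synthase, Tyms, was at 29.8, 32.6 and 28.1 CPM in M0, at 10.9, 12.2 and 15.6 CPM in M0 with DGAT1i, at 1.89, 0.900 and 0.937 CPM in IFNγ + LPS and at 1.65, 2.71 and 2.10 CPM with both. The 4 groups of Tk1 were separate in that order, whereas for Tyms the stimulated groups overlapped. Both genes were low after activation, with 17 reads for Tk1 and 19 for Tyms over 3 libraries. Their log2 fold changes were −5.95 ± 0.18 and −4.61 ± 0.22, and that of Dut, which keeps uracil out of DNA, was −4.20 ± 0.23.

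In the E2F and cyclin E role, the 2 genes of cyclin E went in opposite directions. Ccne1 was at 26.2, 20.9 and 20.5 CPM in M0, at 13.2, 11.9 and 13.9 CPM in M0 with DGAT1i, at 64.6, 58.7 and 75.5 CPM in IFNγ + LPS and at 39.5, 38.4 and 38.3 CPM with both. All 4 groups lay apart, and both stimulated groups were above both resting groups. Ccne2 was at 42.4, 45.0 and 44.7 CPM in M0, at 21.8, 22.7 and 30.5 CPM in M0 with DGAT1i, at 2.11, 2.52 and 1.12 CPM in IFNγ + LPS and at 1.44, 1.46 and 2.57 CPM with both. Its stimulated groups overlapped each other, far below the resting groups. Ccne1 rose by 1.56 ± 0.10 on activation (adjusted p = 4.68e-21) and Ccne2 changed by −4.51 ± 0.19 (adjusted p = 9.13e-29). The transcription factor E2f1 was at 41.0, 45.4 and 41.4 CPM in M0, at 40.8, 35.2 and 36.6 CPM in M0 with DGAT1i, at 27.8, 24.3 and 22.3 CPM in IFNγ + LPS and at 25.1, 33.6 and 29.7 CPM with both. M0 was above IFNγ + LPS in every library, and the change was −0.79 ± 0.10 (adjusted p = 1.32e-09).

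The 4 genes that act on chromatin behind the fork all fell. Dnmt1, the maintenance DNA methyltransferase, was at 280, 307 and 267 CPM in M0, at 218, 218 and 225 CPM in M0 with DGAT1i, at 99.4, 116 and 108 CPM in IFNγ + LPS and at 122, 134 and 127 CPM with both. Its groups lay apart, and the lowest was IFNγ + LPS without the inhibitor. Uhrf1, which leads Dnmt1 to newly copied DNA, was at 146, 166 and 131 CPM in M0, at 72.7, 61.2 and 70.7 CPM in M0 with DGAT1i, at 2.11, 5.22 and 3.37 CPM in IFNγ + LPS and at 2.68, 2.71 and 2.57 CPM with both. For Uhrf1 the 2 stimulated groups overlapped. Dnmt1 changed by −1.40 ± 0.06 on activation (adjusted p = 1.72e-28) and Uhrf1 by −5.34 ± 0.15 (adjusted p = 2.31e-25).

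Chaf1a and Chaf1b encode subunits of the chromatin assembly factor that places histones on new DNA. Chaf1a was at 45.5, 53.9 and 45.4 CPM in M0, at 25.6, 25.8 and 31.8 CPM in M0 with DGAT1i, at 3.58, 7.20 and 4.68 CPM in IFNγ + LPS and at 7.41, 7.30 and 6.77 CPM with both. Chaf1b was at 29.8, 35.3 and 30.8 CPM, then 25.0, 21.2 and 22.0 CPM, then 5.68, 7.38 and 7.68 CPM, then 11.9, 10.4 and 8.87 CPM in the same order of groups. The stimulated groups overlapped for Chaf1a and lay apart for Chaf1b, with the inhibitor above. The changes on activation were −3.20 ± 0.15 and −2.20 ± 0.14. Of Chaf1a, 52.5% of the exon length lies opposite Ubxn6, whose reads cannot be told apart from those of Chaf1a if strand was not used.

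**Figure D2:**
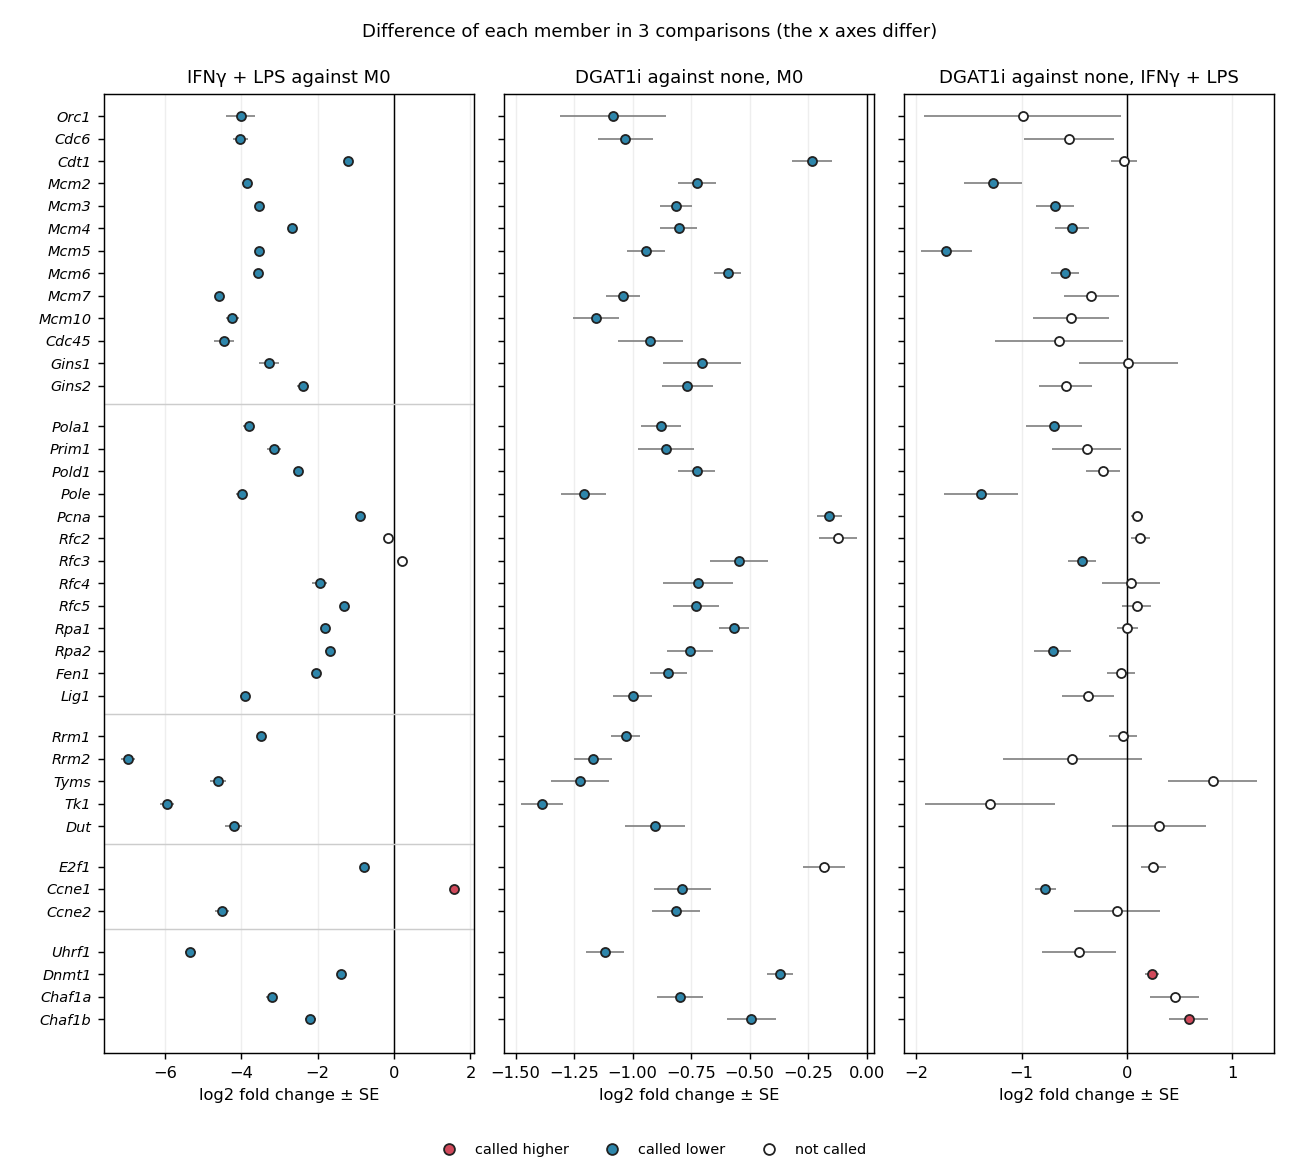
Log2 fold change of each member, with its SE as a bar, for IFNγ + LPS against M0 (left), DGAT1i in M0 (middle) and DGAT1i in IFNγ + LPS (right), filled where called, on x axes of different range. In the left panel 35 members lie below 0 and are called, in the middle panel all 38 lie below 0 and 36 are called, and in the right panel 12 lie above 0 and 26 are not called.

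M0 with DGAT1i was then compared with M0, which shows the response to the inhibitor alone. With the inhibitor 36 of the 38 members fell in resting macrophages, and 0 rose by edgeR, 0 at an unadjusted p under 0.05 and 0 by DESeq2. Over all genes tested 13.4% were called lower and 11.0% higher (1571 and 1298 genes, or 2092 and 885 with scaling by total reads alone). The median log2 fold change of the members was −0.81, against 0.00 for all genes tested. In all 38 members each library with the inhibitor was below each M0 library, against 19.9% of all genes. The M0 libraries are the controls of this comparison and of the first, so the 2 sets of falls are not independent of each other. The changes lay in a narrow band, from −1.39 to −0.12. Of these, 34 to 36 were called lower with a library left out.

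By role, nucleotide supply had the most negative median, −1.17, with Tk1 at −1.39 ± 0.09 (adjusted p = 1.08e-18), Tyms at −1.23 ± 0.12, Rrm2 at −1.17 ± 0.08, Rrm1 at −1.03 ± 0.06 (adjusted p = 6.42e-20) and Dut at −0.90 ± 0.13. In origin licensing and the helicase all 13 fell, with a median of −0.81. The most negative were Mcm10 (−1.15 ± 0.10), Orc1 (−1.08 ± 0.23), Mcm7 (−1.04 ± 0.07, adjusted p = 1.50e-17) and Cdc6 (−1.03 ± 0.12), and Mcm3 was at −0.81 ± 0.07 (adjusted p = 1.11e-14). The least negative was Cdt1 at −0.23 ± 0.08, whose call was lost without replicate 1 or 2 of M0 (−0.22 and −0.18), without replicate 2 of M0 with DGAT1i (−0.15) and with DESeq2 (−0.26, adjusted p = 0.131). Among the polymerases, clamp and fork 12 of 13 fell, led by Pole (−1.21 ± 0.10), Lig1 (−1.0 ± 0.08) and Pola1 (−0.88 ± 0.08).

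Pcna was at 352, 374 and 410 CPM with the inhibitor, all below its M0 libraries, and changed by −0.16 ± 0.05. That call (adjusted p = 0.0264) was lost when any of replicates 1, 2 and 3 of M0 or replicates 1 and 2 of M0 with DGAT1i was left out, with changes of −0.17, −0.16, −0.15, −0.11 and −0.15. Rfc2 was not called, at −0.12 (95% interval from −0.28 to 0.04), and neither was E2f1, at −0.18 (95% interval from −0.36 to −0.01, adjusted p = 0.142). With scaling by total reads alone E2f1 was called lower at −0.24 (adjusted p = 0.0438). Ccne1 and Ccne2, which went apart on activation, both fell, with −0.79 ± 0.12 and −0.82 ± 0.10. Behind the fork, Uhrf1 changed by −1.12 ± 0.08, Chaf1a by −0.80 ± 0.10, Chaf1b by −0.49 ± 0.10 and Dnmt1 by −0.37 ± 0.05. In M0 with DGAT1i the granulocyte list summed to 22.9 to 29.3 CPM and in M0 to 32.2 to 39.7 CPM, and its part in these falls was not tested.

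**Figure D3:**
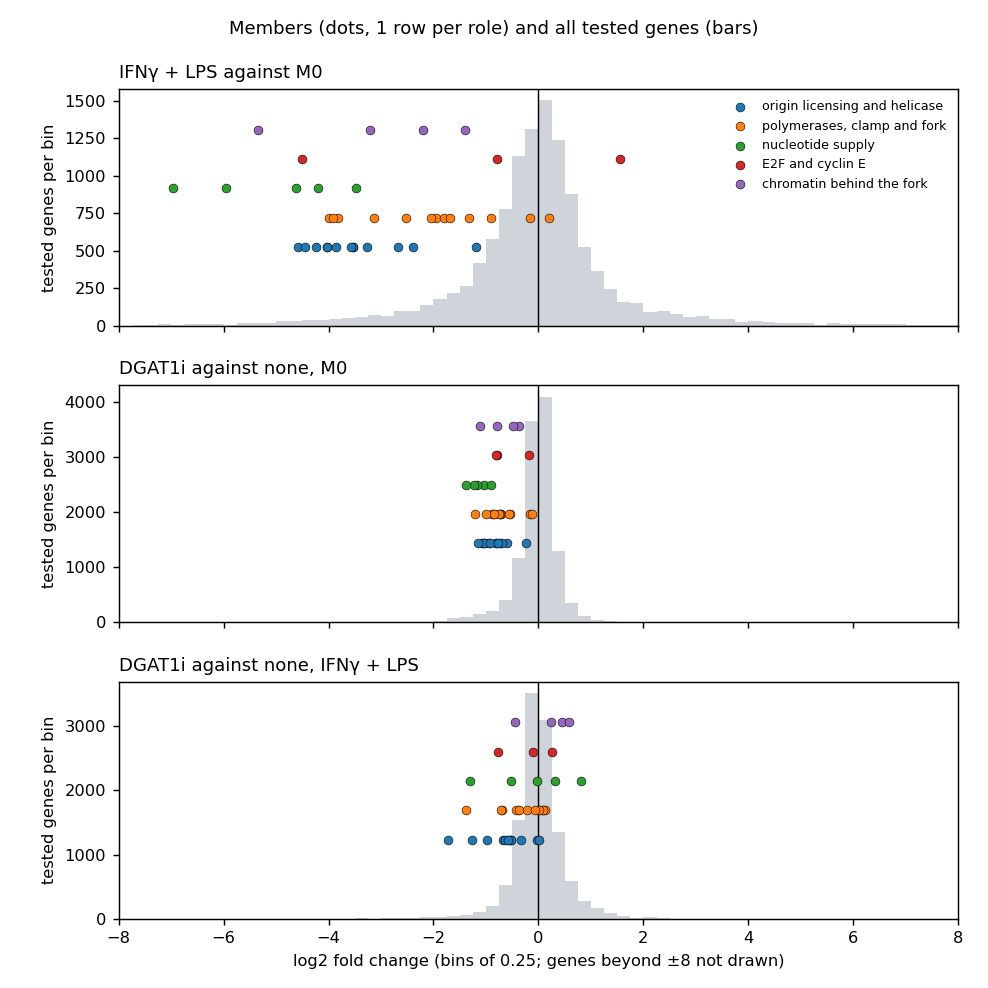
Log2 fold changes of the 38 members (dots, 1 row per role) over those of the genes tested (bars, genes per bin of 0.25, with genes beyond 8 in either direction not drawn) in 3 comparisons. The members' medians are −3.37 on activation, −0.81 with DGAT1i in M0 and −0.38 with DGAT1i in IFNγ + LPS, and those of all genes are 0.01, 0.00 and −0.01.

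IFNγ + LPS with DGAT1i was compared with IFNγ + LPS, which shows the response to the inhibitor in activated macrophages. Of the members, 10 were called lower, 2 were called higher and 26 were not called. Over all genes tested 16.3% were called lower and 13.5% higher, against 26.3% and 5.26% of the members. The median of the members was −0.38 and that of all genes −0.01. The IFNγ + LPS libraries are the controls here and the treated group of the first comparison. The libraries did not overlap for 12 members with the inhibitor below and for 2 with it above, against 21.6% and 18.1% of all genes. Granulocyte genes moved along with this comparison, with S100a8 at 34.5 and S100a9 at 25.8 CPM on average with the inhibitor against 9.13 and 7.78 CPM without, and their part in the result was not tested. Their list of 12 summed to 63.4 to 82.7 CPM with the inhibitor and to 15.4 to 26.0 CPM without, with Elane, Ctsg, Ly6g and Retnlg at 0 reads in both.

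The helicase ring held 5 of the 10 members that fell. Mcm5 changed by −1.71 ± 0.24 (adjusted p = 4.78e-06), Mcm2 by −1.27 ± 0.28 (adjusted p = 0.000332), Mcm3 by −0.68 ± 0.18, Mcm6 by −0.59 ± 0.13 and Mcm4 by −0.52 ± 0.16. The libraries printed above show that for Mcm2, Mcm3, Mcm5 and Mcm6 the 3 with the inhibitor were all below the 3 without. For Mcm4 they were 13.4, 11.9 and 11.9 CPM against 13.1, 20.9 and 18.9 CPM and overlapped, and the call was lost without replicate 2 of IFNγ + LPS (−0.38, adjusted p = 0.110). Mcm7 was also below in every library but was not called, at −0.34 (95% interval from −0.84 to 0.17). The loader Cdt1, with 463 and 404 reads over 3 libraries, was not called, at −0.03 (95% interval from −0.26 to 0.21). The loaders Orc1 and Cdc6 and the activators Cdc45, Gins1 and Gins2 were not called either, and apart from Gins2 (96 and 57 reads over 3 libraries) they rested on at most 28 reads in either group. Orc1 had 7 reads without and 3 with the inhibitor over 3 libraries, a ratio of 2.08 with a counting interval of 0.475 to 12.5. Cdc45 stood at 0.206, 0.209 and 1.63 CPM with the inhibitor, and without replicate 3 of that group, the highest, it was called lower at −2.20 (adjusted p = 0.0448). Gins2 was called lower without replicate 1 of either group (−0.73 and −0.84).

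At the fork, Pole (−1.39 ± 0.35, adjusted p = 0.00203), Rpa2 (−0.70 ± 0.18, adjusted p = 0.00165), Pola1 (−0.69 ± 0.26) and Rfc3 (−0.43 ± 0.13) fell. Rfc3 was at 16.5, 17.1 and 15.4 CPM with the inhibitor against 21.1, 25.2 and 19.5 CPM without, and these libraries did not overlap. The call of Pola1 (adjusted p = 0.0405) was lost with DESeq2, in a fit of the 6 libraries compared, and without replicates 1 or 3 of IFNγ + LPS or replicates 2 or 3 with the inhibitor (−0.45, −0.61, −0.59 and −0.62). That of Rfc3 (adjusted p = 0.0121) was lost with DESeq2 (adjusted p = 0.0602) and without replicate 2 of IFNγ + LPS (−0.31). Lig1 was at −0.37 and was called lower without replicate 1 of IFNγ + LPS with DGAT1i (−0.80, adjusted p = 0.0336). Pcna, at 230, 242 and 254 CPM with the inhibitor and 206, 233 and 238 CPM without, was not called, with a 95% interval from −0.02 to 0.21. Fen1 and Rpa1 were not called either, with intervals from −0.32 to 0.21 and from −0.19 to 0.20.

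In nucleotide supply 0 of 5 genes were called by edgeR, while at an unadjusted p under 0.05 there was 1, Tk1, lower, and with DESeq2 0. Rrm1 had a 95% interval from −0.29 to 0.22. The low genes of this role allowed less precision, with Tyms at 0.81 (95% interval from −0.01 to 1.64), Tk1 at −1.30 (from −2.50 to −0.09) and Rrm2 at −0.52 (from −1.81 to 0.78). Ccne1 changed by −0.77 ± 0.10 (adjusted p = 3.87e-09), and its 3 libraries with the inhibitor were below the 3 without. E2f1 was at 0.25 and was called higher without replicate 1 of IFNγ + LPS with DGAT1i (0.36, adjusted p = 0.0248). Behind the fork Dnmt1 rose by 0.24 ± 0.07 (adjusted p = 0.00366) and Chaf1b by 0.59 ± 0.19 (adjusted p = 0.0131). Both calls were lost without replicate 1 of IFNγ + LPS (0.18 and 0.47), which leaves 0 members called higher, and that of Chaf1b also without replicate 1 of IFNγ + LPS with DGAT1i (0.47). Chaf1a, at 0.45, was called higher without replicate 2 of IFNγ + LPS (0.78, adjusted p = 0.0243), and Uhrf1 was at −0.45 (from −1.14 to 0.24).

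Whether the 2 responses to the inhibitor differ was tested as the response in IFNγ + LPS minus that in M0. The difference was called above 0 for 11 members and below 0 for 1, Mcm5, against 8.66% and 9.80% of all genes tested (1019 and 1152 genes, or 1229 and 882 with scaling by total reads alone, where 0 members were called below 0). The median difference of the members was 0.48, and that of all genes was −0.01. Over the 30 members that passed the filter on the stimulated libraries alone, 10 were called above 0 and 1 below, or 33.3% and 3.33%. Of all genes that passed so, 9.02% were called above 0 and 10.7% below. Tyms, 1 of the 11, is not among these 30 members. The differences of the granulocyte genes Ngp (3.10), S100a8 (2.38) and S100a9 (2.20) were also called above 0, and their part in the result was not tested. For the 11 genes, 10 had fallen with the inhibitor in M0, and E2f1 was not called there. In IFNγ + LPS, Dnmt1 and Chaf1b rose with it and the other 9 were not called. The responses of both states are therefore given side by side, with the difference between them.

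Dnmt1, Chaf1a and Chaf1b, which showed a difference, act behind the fork. Dnmt1 changed by −0.37 in M0 and by 0.24 in IFNγ + LPS, a difference of 0.61 ± 0.09 (adjusted p = 2.08e-07). Chaf1b changed by −0.49 and by 0.59, a difference of 1.08 ± 0.21 (adjusted p = 0.000135), and Chaf1a by −0.80 and by 0.45, a difference of 1.25 ± 0.25 (adjusted p = 0.000171). In nucleotide supply, Rrm1 changed by −1.03 and by −0.03, a difference of 0.99 ± 0.15 (adjusted p = 6.42e-07), and Tyms by −1.23 and by 0.81, a difference of 2.04 ± 0.44 (adjusted p = 0.000467), the largest of the members but resting on 19 and 30 reads in the stimulated groups. At the fork, Fen1 (0.79 ± 0.16), Rfc5 (0.82 ± 0.17) and Rpa1 (0.57 ± 0.12) were near 0 in IFNγ + LPS, at −0.06, 0.09 and 0.01, and had fallen in M0. Pcna (0.25 ± 0.08), Pold1 (0.50 ± 0.18) and E2f1 (0.44 ± 0.15) completed the 11.

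Mcm5 went the other way, from −0.94 in M0 to −1.71 in IFNγ + LPS, a difference of −0.77 ± 0.27 (adjusted p = 0.0441). That call was lost in 3 other settings and without replicate 1 of M0, replicates 1 or 2 of IFNγ + LPS, or replicates 1 or 2 of IFNγ + LPS with DGAT1i (−0.78, −0.77, −0.67, −0.67 and −0.65). The calls of Pold1, Pcna and E2f1 were lost in 9, 4 and 7 of the fits with 1 library left out, with differences from 0.44 to 0.58 for Pold1, from 0.19 to 0.31 for Pcna and from 0.32 to 0.54 for E2f1. All 3 calls were also lost with no filter on low counts, and those of Pold1 and E2f1 with DESeq2, so that 8 to 11 members were called above 0 over the other settings and 8 to 12 with 1 library left out. Those of Dnmt1, Rrm1, Tyms, Fen1, Rfc5, Rpa1, Chaf1a and Chaf1b held in every such fit and other setting.

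**Figure D4:**
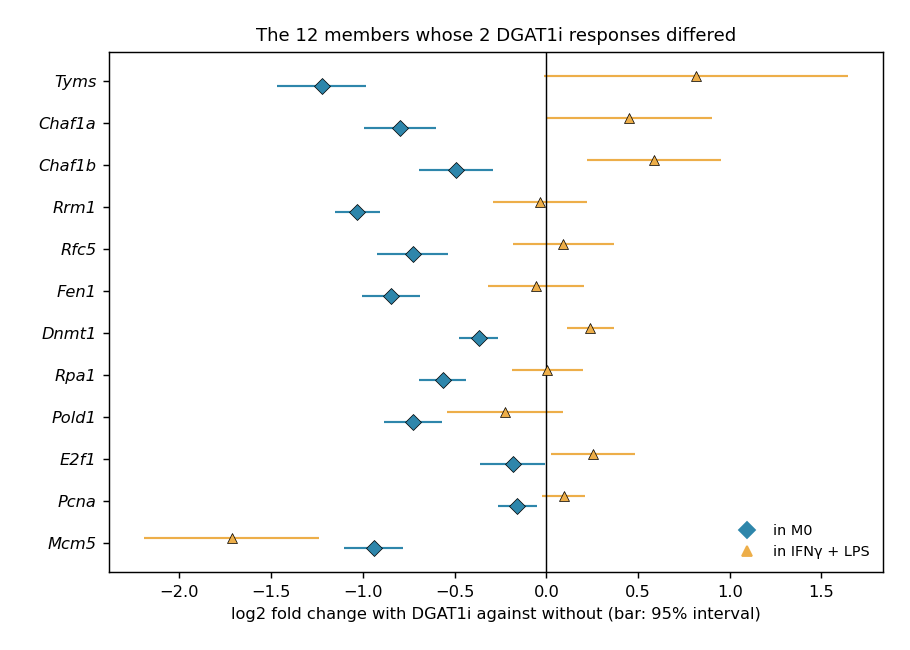
Response to DGAT1i in M0 (diamonds) and in IFNγ + LPS (triangles) of the 12 members whose responses differed, as log2 fold changes with unadjusted 95% intervals. For 11 genes the triangle lies to the right of the diamond and for Mcm5, at −1.71 against −0.94, to the left.

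Activation was also measured with the inhibitor present in both groups, as IFNγ + LPS with DGAT1i against M0 with DGAT1i. Of the members 35 were called lower and 2 higher, Ccne1 and Rfc3, with Rfc2 not called at 0.09, while 35.3% of all genes were called in each direction and 70.6% in either (6799 genes lower and 2333 higher with scaling by total reads alone, in place of 4151 and 4152). Over the 30 members that passed the filter on the stimulated libraries alone, 27 were lower and 2 higher. Among all genes that passed so, 32.3% were called lower and 38.8% higher. The median of the 38 members was −2.56 and that of these 30 was −2.11. Granulocyte genes went the other way, with S100a8 (2.72), S100a9 (1.84) and Ngp (0.50) called higher and a summed level of 22.9 to 29.3 CPM in M0 with DGAT1i and of 63.4 to 82.7 CPM with both, and their part in the result was not tested. This comparison has no libraries of its own, since all 6 enter those above. Ccne1 rose by 1.57 ± 0.12 (adjusted p = 1.21e-17), Rrm2 changed by −6.32 ± 0.24, Tk1 by −5.86 ± 0.27 and Uhrf1 by −4.67 ± 0.18. Of these genes, Rrm2 and Tk1 passed the filter through the resting libraries only, so their falls are a description. Rfc3 rose by 0.32 ± 0.14 (adjusted p = 0.0389). With scaling by total reads alone, where the median of all genes was −0.43, Rfc3 was at −0.10 and not called, and Rfc2 was called lower at −0.33 (adjusted p = 0.000603). The call of Rfc3 was also lost with DESeq2, with no filter on low counts, and without replicate 2 of M0 with DGAT1i (0.21) or replicates 1 or 2 of IFNγ + LPS with DGAT1i (0.32 and 0.28). E2f1, at −0.35, was no longer called when replicate 1 of IFNγ + LPS with DGAT1i was left out (−0.24, adjusted p = 0.0534).

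The other genes of these pathways were read in 5 lists. Over the 5 lists, 16 genes were called higher on activation, and 6 with scaling by total reads alone. With the inhibitor DESeq2 called fewer of them, 12 in place of 19 lower in IFNγ + LPS, 75 in place of 88 lower in M0 and 1 in place of 4 higher in M0. Of 37 other licensing, firing and fork genes, 29 fell and 5 rose on activation, or 78.4% and 13.5%, with a median of −1.67. Over all genes tested 36.2% were called lower and 37.1% higher. With the inhibitor in M0 27 fell and 1, Orc3, rose (22 and 0 with DESeq2), or 73% and 2.7%, against 13.4% and 11.0%. Over the 30 of the 37 that passed the filter on the stimulated libraries alone, 22 fell and 5 rose on activation, or 73.3% and 16.7%. Among all genes that passed so, 32.6% fell and 40.9% rose. The adaptor Clspn, which links the fork to the checkpoint, was at 60.6, 62.6 and 51.9 CPM in M0, at 31.5, 27.7 and 35.0 CPM in M0 with DGAT1i, at 0.211, 0.360 and 0.187 CPM in IFNγ + LPS and at 0 in all 3 libraries with both. With both agents it was thus at least 146-fold lower than in M0 with DGAT1i, taking 3 reads over the group as the floor. Topbp1, which helps to fire origins, changed by −2.14 ± 0.08 on activation (adjusted p = 4.87e-32) and by −0.48 ± 0.06 with the inhibitor in M0. Pold3, an accessory subunit of polymerase δ, was at 72.9, 78.8 and 70.4 CPM in IFNγ + LPS and lower with the inhibitor, at 58.9, 55.7 and 64.4 CPM, a change of −0.32 ± 0.08. In that comparison 10 of the 37 fell and 2, Gmnn and Pole2, rose, or 27.0% and 5.41%, against 16.3% and 13.5% of all genes tested. With DESeq2 5 of the 37 were lower and 1 was higher, and the call of Gmnn was lost. In that fit 1456 of 12092 genes were called lower and 1121 higher.

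Of 17 other nucleotide enzymes, 12 fell and 4 rose on activation, or 70.6% and 23.5%, against 36.2% and 37.1% of all genes tested. Over the 15 that passed the filter on the stimulated libraries alone, 10 fell and 4 rose, or 66.7% and 26.7%. Among all genes that passed so, 32.6% fell and 40.9% rose. Samhd1, which breaks down the nucleotides that polymerases use, rose from 122, 121 and 120 CPM in M0 to 2790, 3070 and 2880 CPM in IFNγ + LPS, by 4.58 ± 0.06 (adjusted p = 4.57e-53). It was at 117, 118 and 110 CPM in M0 with DGAT1i and at 2520, 2850 and 2720 CPM with both, and neither change with the inhibitor was called. The salvage kinase Dck rose by 1.29 ± 0.07 on activation, whereas Cad, of pyrimidine synthesis, changed by −1.89 ± 0.11. With the inhibitor in M0 10 of the 17 fell, 5 of them also by DESeq2. These 10 are 58.8% of the list, against 13.4% of all genes tested. Impdh1, of guanine nucleotide synthesis, alone rose, by 0.45 ± 0.08 (5.88% of the list, against 11.0%). Impdh1 was also the 1 gene of the list that rose with the inhibitor in IFNγ + LPS, by 0.95 ± 0.08 (adjusted p = 2.26e-14). There 3 fell, or 17.6% of the list, against 16.3% of all genes tested.

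The 29 regulators of the RB family, E2F and the step from G1 to S went in both directions on activation, with 18 lower and 7 higher, or 62.1% and 24.1%, against 36.2% and 37.1% of all genes tested. Over the 24 that passed the filter on the stimulated libraries alone, 13 fell and 7 rose, or 54.2% and 29.2%. Of the 10660 genes that passed so, 32.6% were called lower and 40.9% higher. Cyclin D2, Ccnd2, rose from 22.1, 21.0 and 20.6 CPM in M0 to 152, 137 and 134 CPM in IFNγ + LPS, and was at 43.0, 53.8 and 45.3 CPM with both. Its groups lay apart, and the changes were 2.73 ± 0.08 on activation and −1.57 ± 0.08 with the inhibitor in IFNγ + LPS (adjusted p = 2.63e-23). The inhibitor of cyclin-dependent kinases Cdkn1a was at 144, 154 and 145 CPM in M0, at 460, 441 and 463 CPM in IFNγ + LPS and at 504, 538 and 528 CPM with both, and rose by 1.62 ± 0.05 on activation and by 0.20 with the inhibitor in IFNγ + LPS (adjusted p = 0.00173). Rbl1, a relative of the retinoblastoma protein, rose by 1.26 on activation and changed by −0.64 ± 0.06 with the inhibitor in IFNγ + LPS. In that comparison 7 of the 29 rose, among them the kinase inhibitor Cdkn1b (0.65 ± 0.09), and 3 fell, or 24.1% and 10.3%, against 13.5% and 16.3% of all genes tested. With the inhibitor in M0, 17 fell and 2 rose (15 and 0 with DESeq2), or 58.6% and 6.9%, against 13.4% and 11.0% of all genes tested. Among those that fell were Cdkn2c (−1.66 ± 0.10) and cyclin A2, Ccna2 (−1.59 ± 0.08). The difference between the responses was called above 0 for 11 of the 29, among them Cdkn2d (1.66 ± 0.19), and below 0 for 2 (1 with DESeq2). These are 37.9% and 6.9% of the list, against 8.66% and 9.80% of all genes tested.

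Checkpoint and repair genes of S phase followed the members. On activation 17 of 18 were lower, or 94.4%, against 36.2% of all genes tested. With the inhibitor in M0 16 of 18 were lower, or 88.9%, against 13.4% of all genes tested. Fancd2, of the repair of cross-linked DNA, changed by −4.98 ± 0.23 and by −1.12 ± 0.12, and Brca1 by −2.48 ± 0.12 and by −1.05 ± 0.09. Of these 18, 9 passed the filter on the stimulated libraries alone, and all 9 were lower on activation. With the inhibitor in IFNγ + LPS 1 gene of this list rose, the kinase Wee1 (0.73 ± 0.16), and 3 fell. These are 5.56% and 16.7% of the list, against 13.5% and 16.3% of all genes tested. All 18 genes of G2 and mitosis fell on activation, with a median of −5.57, and all 18 fell with the inhibitor in M0, with a median of −1.43. Of all genes tested 36.2% and 13.4% were called lower in these comparisons. On the stimulated libraries alone 6 of the 18 passed the filter, and their median on activation was −4.62. Mki67, the gene of the Ki-67 antigen, was at 457, 508 and 383 CPM in M0, at 182, 169 and 186 CPM in M0 with DGAT1i, at 9.90, 11.9 and 8.99 CPM in IFNγ + LPS and at 10.9, 11.5 and 10.5 CPM with both. The 2 stimulated groups of Mki67 overlapped. With the inhibitor in IFNγ + LPS 0 of the 18 genes were called, by edgeR, 3 (Aurka, Cdc20 and Ttk) lower at an unadjusted p under 0.05 and 0 with DESeq2. The difference between the responses was called above 0 for 7 of the 18, or 38.9%, against 8.66% of all genes tested. Of the 6 that passed the filter on the stimulated libraries alone, 4 were called above 0, against 9.02% of all genes that passed so.

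**Figure D5:**
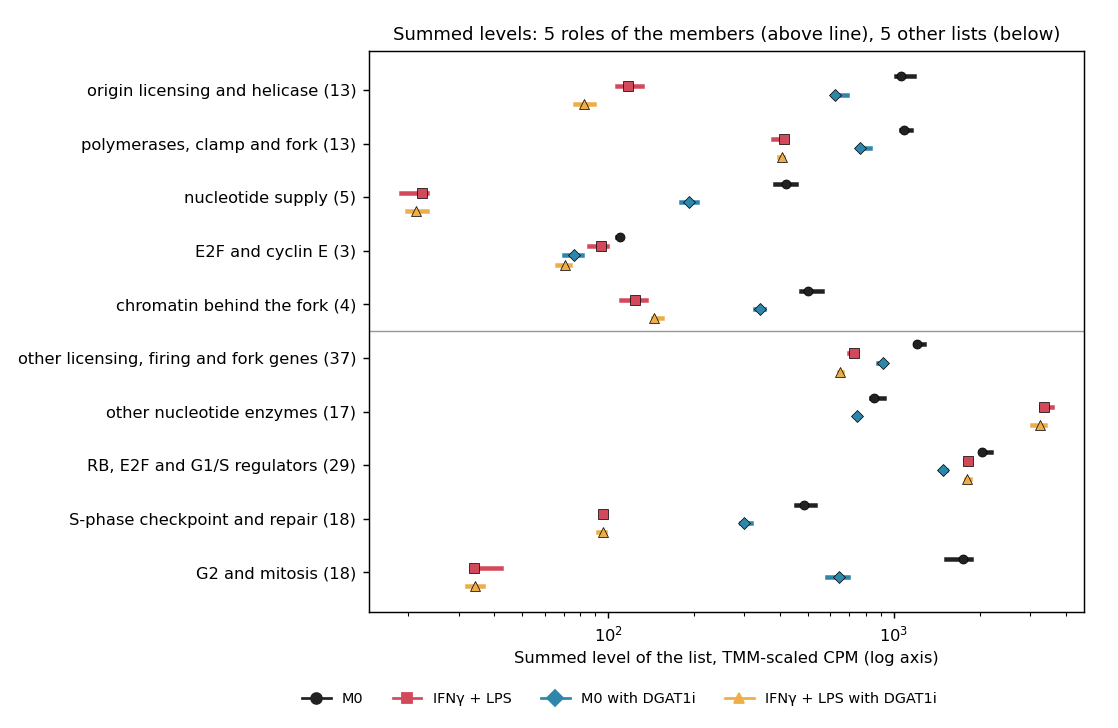
Summed level of the 5 roles of the members (above the line) and of 5 other lists (below it), with the number of genes in parentheses, in TMM-scaled CPM on a log axis, where the symbol is the median of the 3 libraries and the bar runs from the lowest to the highest. Nucleotide supply sits at 385 to 453 CPM in M0, at 180 to 204 CPM with DGAT1i and at 18.9 to 23.2 CPM in IFNγ + LPS, whereas the other nucleotide enzymes, which include Samhd1, sit at 831 to 921 CPM in M0 and at 3290 to 3580 CPM in IFNγ + LPS.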

How the data were processed

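RNA of bone marrow-derived macrophages was sequenced in 12 libraries, 3 for each of the 4 groups given by the labels. The authors deposited 1 table of raw read counts per gene for the 12 libraries, made with their institute's pipeline. The submitters' processing notes name GRCm38 and DESeq2. For the aligner, the counter and the use of strand in counting, nothing is stated in the sources read, and reads of genes that overlap on opposite strands may therefore be mixed. For the library kit the methods name a stranded TruSeq kit and the labels NEBNext Single Cell/Low Input.

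Genes were kept by edgeR 4.0.16 filterByExpr (minimum count 10, which here needed a CPM of 1.64 before TMM scaling in 3 libraries), scaled by TMM and fitted with the quasi-likelihood test (robust) over all 12 libraries with 1 mean per group. The fit was run in R 4.3.3. The 5 contrasts were adjusted by Benjamini-Hochberg over 11760 genes, with a threshold of 0.05, and 95% intervals are 1.96 SE on either side. The count of reads behind 1 CPM sets the precision of low genes, and counting intervals and floors (3 reads over a group) cover counting error only. The fits were tested on simulated data.

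Members, gene lists and tests were chosen with earlier results of these data known. Members given with every library were, per role, the 2 with the smallest p in each of 3 contrasts, the 5 whose responses differed with the smallest p, and any whose direction went against the majority. Pcna, Rrm2, Rfc2, Mcm4 and Cdc45 were added after their values were seen. Of the other lists, up to 3 called genes with the smallest p per contrast could be named, and Orc3, Gmnn, Pole2, Aurka, Cdc20 and Ttk were named after their values were seen. Alternatives were DESeq2 1.42.0, other scalings and filters, fits of the 6 libraries compared, a replicate block and leaving out each library. Deviations of same-numbered libraries from their group means correlated between −0.0217 and 0.0687 over 18 pairs. For differently numbered libraries of different groups they ran from −0.058 to 0.0381. Such values cannot show whether same-numbered libraries shared a culture or animal, and the main fit did not pair them. Promoter windows came from RefSeq (GRCm38.p6), and exon lengths and overlaps from GENCODE vM21. Copies of members were searched with BLAST 2.17.0+ at 95% identity.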

Additional observations from a re-analysis of the deposited data

Results flagged for a closer look

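The responses to DGAT1i in IFNγ + LPS and in M0 differed for 12 of the 38 members by the interaction test of edgeR with Benjamini-Hochberg adjustment, and a difference above 0 means a higher log2 fold change in IFNγ + LPS. At the fork the difference was 0.50 for Pold1, 0.25 for Pcna, 0.82 for Rfc5, 0.57 for Rpa1 and 0.79 for Fen1. In nucleotide supply it was 0.99 for Rrm1 and 2.04 for Tyms, and for E2f1 it was 0.44. Behind the fork it was 0.61 for Dnmt1, 1.25 for Chaf1a and 1.08 for Chaf1b. Mcm5 alone had a difference below 0, of −0.77.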

How the results depend on the processing

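Scaling by total reads alone moved the median of all genes to −0.46 on activation and to −0.43 on activation with DGAT1i in both groups, and by that construction every change moved with it. Rfc3 then turned to −0.27 on activation, and with DGAT1i in both groups Rfc2 turned to −0.33 and Rfc3 to −0.10. Of the other pathway genes, 6 in place of 16 were then higher on activation, 2 in place of 4 higher with DGAT1i in M0, and 1 in place of 2 called below 0 in the difference between responses. With DESeq2, tried for these lists after the data were seen, 12 in place of 19 were lower with DGAT1i in IFNγ + LPS, 1 in place of 4 higher with DGAT1i in M0, and 1 in place of 2 called below 0 in the difference. The 1 member called below 0 in that difference, Mcm5, became 0 with size factors of DESeq2, with total reads and with the replicate block (−0.77, adjusted p = 0.0771), and the block changed no other call of a member. With DGAT1i in both groups the 2 members higher on activation became 1 with total reads, with no filter on low counts and with DESeq2. The causes were not tested.

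With 1 library left out, members higher with DGAT1i in IFNγ + LPS numbered 0 to 3, other pathway genes lower there 12 to 19, and other pathway genes higher with DGAT1i in M0 1 to 4. In the difference, members called below 0 numbered 0 to 1 and other pathway genes called below 0 numbered 1 to 3. On activation with DGAT1i in both groups, 1 to 2 members were higher. Depth limits the 8 members tested only through the resting libraries, with 3 to 30 reads over the 3 stimulated libraries of a group, and likewise Mcm10 and Pole (24 reads each), Prim1 (30) and Ccne2 (25) with both agents.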
